A study of Mus musculus with 12 samples.

Results

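The imprinted fetal growth genes are a list of 10 mouse genes that are each expressed mainly from the chromosome copy of 1 parent and act on growth before and shortly after birth: Igf2, H19, Dlk1, Meg3, Igf2r, Cdkn1c, Peg3, Mest, Plagl1 and Grb10. Their members on the array were all probe sets whose only listed gene symbol was one of these names. This rule found 30 of 45037 probe sets, for 9 of the 10 genes. The list itself was drawn up with earlier results of these data known. Meg3 had 11 probe sets, Peg3 5, Plagl1 and Grb10 3 each, Igf2, Dlk1 and Igf2r 2 each, and Cdkn1c and Mest 1 each. H19 had none of its own, because its probe set is listed under Mir675 as well, and it has no value in the results below. After the filter on low values 27 member probe sets remained among the 22518 tested, and the 3 below it were 1 of Igf2 and 2 of Peg3.

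RNA of the whole bladder, taken from mice at postnatal day 1, was put on 12 one-colour arrays to learn what a transgene does to the organ's profile. The SMGA/EGFP group (3 arrays) carried an EGFP transgene named for smooth muscle gamma actin (Actg2), the SMAA/EYFP group (3 arrays) an EYFP transgene named for smooth muscle alpha actin (Acta2), and the wild-type group (6 arrays) no transgene. All mice shared the FVB/N strain and had FVB/N mothers, the fathers of the transgenic litters carried the transgene, and every animal is labelled male and unpooled. Litter, father and genotype therefore cannot be told apart, and arrays carry no information on which parental copy was expressed. In RNA of a whole organ, fewer cells of a type and less RNA per cell cannot be told apart either. Nothing states that the arrays of a group come from different litters, so p-values measure the spread between these samples.

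The labelled tissue was borne out by its markers: all 8 smooth muscle, 8 urothelium and 7 fibroblast markers lay above the filter on low values, with the fibroblast collagen Col3a1 at rank 2 and Acta2 at rank 6 of all probe sets. Median intensity per array ran from 229.39 to 305.94. Array correlations were 0.953 to 0.971 within groups and 0.948 to 0.974 between groups. Wild type 4 did not show a male profile, with an Xist intensity of 29604 against 80.1 to 250.4 on the other arrays. It was kept, and without it the log2 differences from wild type described below were -0.26 for Igf2 in SMGA/EGFP and -0.34 for Dlk1 and -0.39 for Mest in SMAA/EYFP, with 0 members past the threshold in any comparison. In the order of the database records, SMGA/EGFP and wild type 1 to 3 come before SMAA/EYFP and wild type 4 to 6. These runs are called the earlier and the later records here, and nothing in the labels calls them batches.

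Imprinted genes carry a methylation mark set in the egg or the sperm that leaves 1 parental copy silent, and many of them lie in clusters under a shared control region. In mice the paternally expressed members, Igf2, Dlk1, Peg3, Mest and Plagl1, mostly favour growth, while the maternally expressed Igf2r, Cdkn1c and, in most tissues, Grb10 restrain it. H19 and Meg3 are maternally expressed noncoding RNAs, neighbours of Igf2 and of Dlk1. Most of these genes are bright in fetal mesenchyme and are turned down together in the weeks after birth.

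Every one of the 9 measured genes had at least 1 probe set among the brightest on the array. Rank 1 is the brightest of the 45037 probe sets, and the probe set of highest mean leads its gene in all that follows. By mean over the 12 arrays, Plagl1 was at rank 158, Grb10 at 471, Igf2 at 533, Peg3 at 665, Meg3 at 698, Igf2r at 1366, Dlk1 at 1519, Cdkn1c at 1652 and Mest at 1754. The top of this order thus lay in the brightest 0.351% and its end in the brightest 3.89%. The leading probe sets of Plagl1 and Meg3 were 1426208_x_at and 1439380_x_at. The place of Plagl1 rests on that single probe set, since its others lay at ranks 10708 and 13092. Brightness depends on a probe set's sequence as well as on the RNA, so a rank is a position on the array and not an amount of transcript, and genes are not compared by level.

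Ranks moved little between arrays for some genes and widely for others. Plagl1 stayed between ranks 124 and 182, Grb10 between 359 and 628, Peg3 between 576 and 775, and Igf2 between 416 and 820. Their ranges are narrow beside those of Meg3, from 272 to 1112, Cdkn1c, from 985 to 2458, and Mest, from 1149 to 2792. Igf2r ran from 876 to 2098 and Dlk1 from 1174 to 2075. Neighbours in the order of means whose ranges overlap, such as Igf2, Peg3 and Meg3, are not set apart by it.

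**Figure D1:**
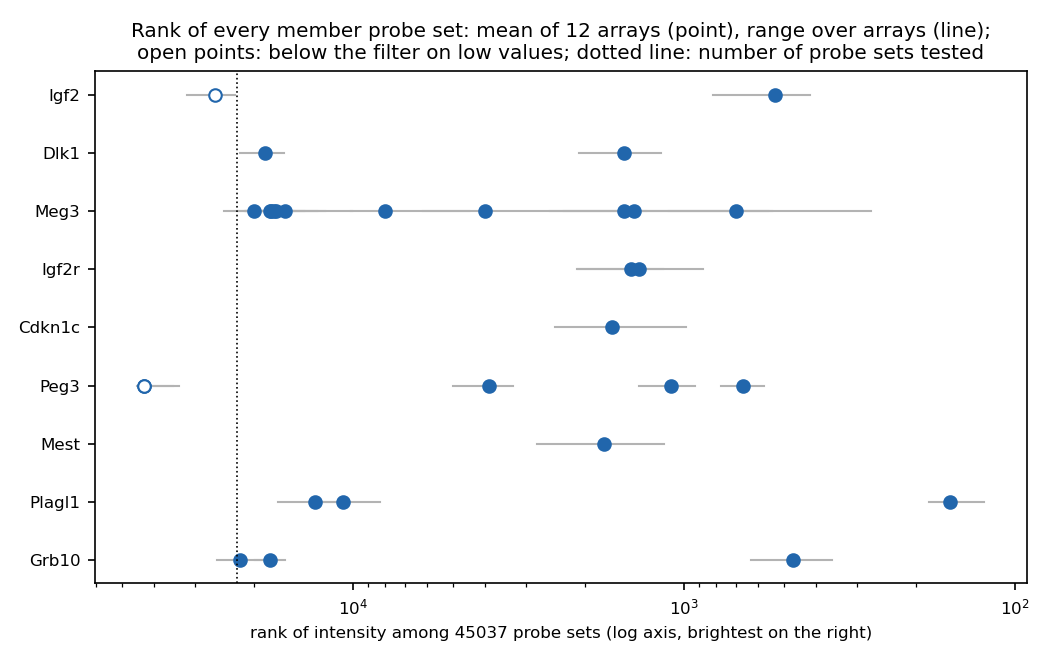
Rank of intensity of all 30 member probe sets among 45037 (log axis, brightest on the right), as the mean over 12 arrays (point) and the range over arrays (line), with open points for the 3 below the filter on low values. Plagl1 leads at rank 158, the leading probe sets of all 9 genes lie at rank 1754 or brighter, and several genes also have dim probe sets.

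The spread over the 12 arrays followed the same division. As the standard deviation (SD) of normalized log2 intensity, it was 0.04 for Plagl1, 0.08 for Peg3, 0.14 for Grb10 and 0.15 for Igf2. It was 0.22 for Dlk1 and for Igf2r, 0.29 for Mest, 0.33 for Meg3 and 0.36 for Cdkn1c. Among the 2252 brightest probe sets tested, the median SD was 0.12 and the 95th percentile 0.30. Plagl1 and Peg3 thus lay below that median, and Meg3 and Cdkn1c above that percentile. The dimmer probe sets of Plagl1 had an SD of 0.29 and 0.42.

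None of the 27 tested member probe sets changed past an adjusted p of 0.05 in any comparison (limma, Benjamini-Hochberg over all 22518 probe sets). In SMGA/EGFP against wild type, 0 of 27 passed, where 0.0622% of all probe sets did, and the smallest adjusted p of a member was 0.509. At an unadjusted p under 0.05, 0 members were higher and 1 was lower, where 2.77% and 4.16% of all probe sets were. The arrays of the groups did not overlap in 0 higher members and 1 lower, Igf2, where 1.11% and 1.61% of all probe sets did not. Of the 9 leading probe sets 3 were higher and 6 lower, with a median log2 difference of -0.01, which is also the median of all probe sets.

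In SMAA/EYFP against wild type, 8 of the 9 leading probe sets were lower, and their median log2 difference was -0.15 beside 0.00 over all probe sets tested. Again 0 of 27 passed, as did 0% of all, and every member's adjusted p was 0.991 or more. At an unadjusted p under 0.05, 0 were higher and 2 lower, both of Dlk1, where 2.67% and 2.14% of all probe sets were. The groups did not overlap in 0 higher members and 2 lower, Dlk1 and Mest, where 1.72% and 1.27% of all did not. Both contrasts use the same 6 wild-type arrays, so their signs are not independent of each other.

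Markers of other cell types moved beside these values. Of the 8 urothelium markers, those of the bladder's epithelial lining, 8 of 8 were higher in SMAA/EYFP than in wild type, with a median log2 difference of 0.31, 5 at an unadjusted p under 0.05 and 0 past the threshold. Their summed level was 193350 to 208861 in SMAA/EYFP, above the 145412 to 186887 of wild type. In SMGA/EGFP 8 of 8 were also higher, with a median of 0.17, 0 past the threshold and a summed level of 171307 to 197825. Endothelium markers were lower in 6 of 6 in SMAA/EYFP, with a median of -0.25, and in 6 of 6 in SMGA/EGFP, with a median of -0.21, again with 0 past the threshold. Their summed level was 10664 to 13644 in SMGA/EGFP, 11408 to 13735 in SMAA/EYFP and 12971 to 15492 in wild type. Fibroblast markers were lower in 7 of 7 in SMAA/EYFP, with a median of -0.11, and in 5 of 7 in SMGA/EGFP, with a median of -0.07. Pdgfra among them was at -0.32 ± 0.11 in SMAA/EYFP (unadjusted p = 0.0125, limma adjusted p = 0.991) and at 0.13 ± 0.11 in SMGA/EGFP. Its intensity was 10246 to 11898 in SMAA/EYFP and 12506 to 15674 in wild type. The part of these cell types in the member values, those of Igf2, Dlk1 and Mest included, was not tested.

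SMGA/EGFP against SMAA/EYFP gave 7 of 9 leading probe sets higher, with a median log2 difference of 0.15 beside -0.02 over all. Here 0 of 27 passed, where 0.0799% of all probe sets did, and the smallest adjusted p was 0.494. At an unadjusted p under 0.05, 1 was higher and 0 were lower, where 4.19% and 5.12% of all were. The groups did not overlap in 1 higher member, Cdkn1c, and 0 lower, where 6.48% and 8.06% of all did not. With the transgenic groups averaged, 0 of 27 passed against wild type, where 0.00444% of all did. At an unadjusted p under 0.05, 0 members were higher and 3 lower, where 2.24% and 1.94% of all were, and the groups did not overlap in 0 members, where 0.0444% (higher) and 0.107% (lower) of all did not. These 3 were the leading probe sets of Igf2 and Dlk1 and a dimmer one of Plagl1.

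**Figure D2:**
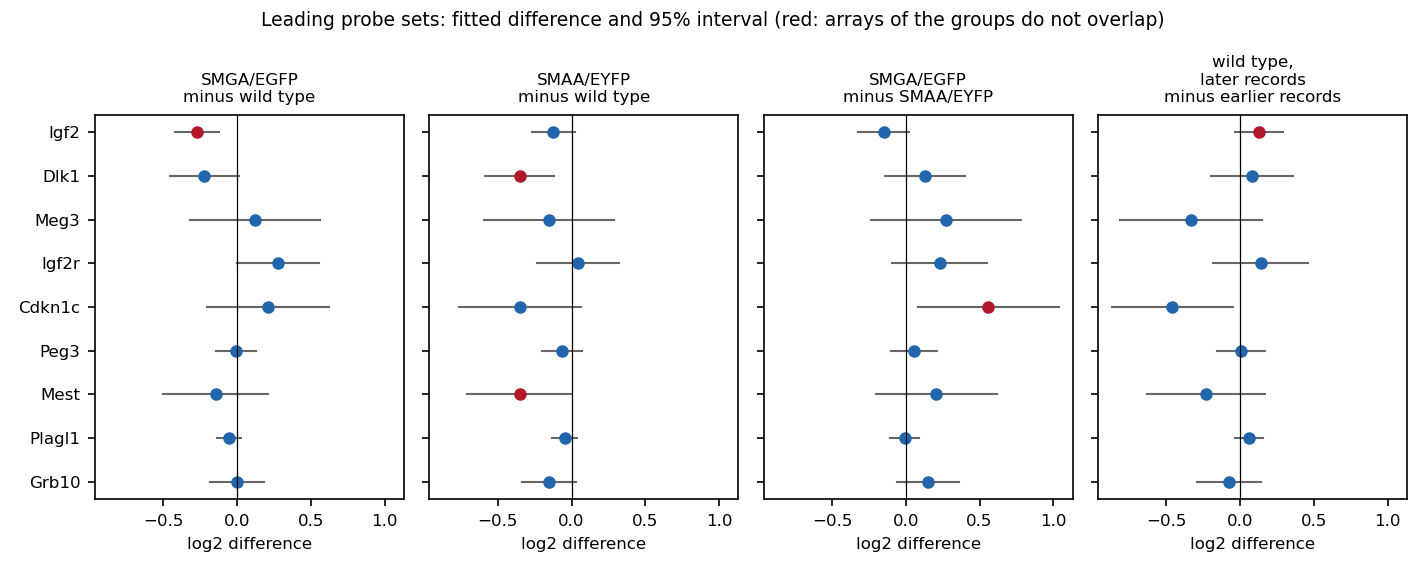
Fitted log2 difference (point) and 95% interval (line) of the leading probe set of each of the 9 genes, for SMGA/EGFP minus wild type, SMAA/EYFP minus wild type, SMGA/EGFP minus SMAA/EYFP, and later minus earlier records within wild type, with red for groups whose arrays do not overlap. Igf2 lies at -0.27 in the first panel, Dlk1 and Mest at -0.35 in the second and Cdkn1c at 0.56 in the third, Igf2 is also red at 0.13 in the fourth, and no point passed the adjusted threshold.

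Igf2 encodes insulin-like growth factor 2, the main growth factor of the mouse fetus. Its intensity was 26916, 21002 and 24317 in SMGA/EGFP arrays 1 to 3. It was 30208, 25223 and 25331 in SMAA/EYFP arrays 1 to 3, and in the 6 wild-type arrays it ran from 27045 over a median of 28976.5 to 31119. All 3 SMGA/EGFP arrays lay below all 6 wild-type arrays, while SMAA/EYFP 1 lay within the wild-type range and the other SMAA/EYFP arrays below it.

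The log2 difference of Igf2 in SMGA/EGFP from wild type was -0.27 ± 0.07 (SE), which is 0.828-fold, with a 95% interval of -0.42 to -0.12 (unadjusted p = 0.00147, limma adjusted p = 0.509). By unadjusted p it stood at place 64 of the 22518 probe sets in this comparison. Under the alternatives the difference kept its sign, between -0.37 and -0.19, and its adjusted p ran from 0.302 to 1. Within the earlier records, against wild type 1 to 3, it was -0.21. In SMAA/EYFP the difference was -0.12 ± 0.07 (limma adjusted p = 0.991), and -0.18 within the later records. For the mean of both transgenic groups it was -0.20 ± 0.06 (unadjusted p = 0.00353, limma adjusted p = 0.996).

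Igf2 has a second, dim probe set with 95.1 to 246.7 intensity units over the 12 arrays, which fell below the filter and was not tested. Fibroblasts, which make much of the bladder's matrix, had a summed level of their 7 markers of 209562 to 263197 in SMGA/EGFP, 213186 to 227019 in SMAA/EYFP and 214152 to 237937 in wild type. Of these markers 5 of 7 were lower in SMGA/EGFP and 7 of 7 in SMAA/EYFP, with 0 past the threshold. SMGA/EGFP 2, the lowest array for Igf2, was also the lowest in that sum. SMGA/EGFP 1, whose Igf2 value also lay below all wild-type arrays, was the highest in it, at 263197. Mesothelium, the outer covering of the bladder, had 3 of 6 markers past the threshold in SMGA/EGFP, all lower. The summed level of the 6 was 15469 to 16972 in SMGA/EGFP and 26566 to 35459 in SMAA/EYFP. It was 17676 to 20477 in wild type 1 to 3 and 23708 to 27332 in wild type 4 to 6. Between these, 6 of 6 markers were higher in the later records, with a median log2 difference of 0.79, 5 at an unadjusted p under 0.05 (limma) and 0 past the threshold. Most of the SMGA/EGFP sum was Upk3b, at 13811 to 15632 intensity units, which was not among the 3 that passed. The part of either cell type in the Igf2 values was not tested.

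Igf2r encodes the receptor that takes up IGF2 and sends it to lysosomes. Its leading probe set had 20868, 13971 and 16856 intensity units in SMGA/EGFP arrays 1 to 3. It had 16267, 13057 and 14811 in SMAA/EYFP arrays 1 to 3, and 10758, a median of 14619 and 16128 from lowest to highest in wild type. The groups overlapped, and SMGA/EGFP 1 was the highest and wild type 2 the lowest of the 12 arrays. The log2 difference in SMGA/EGFP from wild type was 0.28 ± 0.13 (SE; limma adjusted p = 0.718), and 0.14 without SMGA/EGFP 1. The other probe set of Igf2r, at rank 1452, was at -0.10 ± 0.11 in the same comparison, so the sign of the difference depended on the probe set. Over the 12 arrays the correlation of the pair of probe sets was r = 0.38. In SMAA/EYFP the differences of the pair were 0.05 ± 0.13 and -0.13 ± 0.11.

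Grb10 encodes an adaptor protein that binds the insulin and IGF1 receptors and dampens their signal. Its leading probe set had 32966, 26307 and 30284 intensity units in SMGA/EGFP arrays 1 to 3. It had 31469.6, 24437 and 25582 in SMAA/EYFP arrays 1 to 3, and ran from 27456 over a median of 29702 to 32675 in wild type. The group ranges overlapped, with SMAA/EYFP 2 and 3 and SMGA/EGFP 2 below all wild-type arrays. The log2 differences from wild type were 0.00 ± 0.09 in SMGA/EGFP (95% interval -0.19 to 0.18) and -0.15 ± 0.09 in SMAA/EYFP (limma adjusted p = 0.991). The remaining probe sets of Grb10 lay at ranks 17848 and 21943, and their differences from wild type were 0.06 ± 0.20 and -0.08 ± 0.25 in SMGA/EGFP and 0.05 ± 0.20 and 0.00 ± 0.25 in SMAA/EYFP. Correlations among the 3 probe sets ran from -0.26 to 0.41.

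Of 7 further genes of this pathway, the IGF receptors, adaptors and proteins that bind Igf2 mRNA, 6 were tested and 0 passed in any comparison. Igf1r, the receptor through which IGF2 signals, was at 0.19 ± 0.08 in SMGA/EGFP against wild type (limma adjusted p = 0.718). Igf2bp3, a protein that binds Igf2 mRNA, was at -0.33 ± 0.11 in SMGA/EGFP against SMAA/EYFP (limma adjusted p = 0.413). In SMGA/EGFP against wild type 4 of 6 were higher and 2 lower, with a median of 0.08. In SMAA/EYFP against wild type 3 were higher and 3 lower, with a median of -0.01.

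Dlk1 encodes a membrane protein of the Notch ligand family that is known for holding back adipocyte differentiation. Its leading probe set had 16074, 11286 and 12264 intensity units in SMGA/EGFP arrays 1 to 3. It had 12266.5, 12921 and 11066 in SMAA/EYFP arrays 1 to 3, and ran from 13973 over a median of 15796 to 16839 in wild type. All 3 SMAA/EYFP arrays lay below all 6 wild-type arrays, as did SMGA/EGFP 2 and 3, while SMGA/EGFP 1 lay within the wild-type range.

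The log2 difference of Dlk1 in SMAA/EYFP from wild type was -0.35 ± 0.11 (SE), 0.784-fold, with a 95% interval of -0.58 to -0.12 (unadjusted p = 0.00624, limma adjusted p = 0.991). It was -0.39 within the later records, and between -0.41 and -0.29 over the alternatives, with adjusted p from 0.647 to 1. The dimmer probe set of Dlk1, at rank 18509, was at -0.57 ± 0.24 (unadjusted p = 0.0342), with overlapping groups. In SMGA/EGFP the differences were -0.22 ± 0.11 (limma adjusted p = 0.724) for the leading and -0.23 ± 0.24 for the dimmer probe set. The first of these was -0.11 without SMGA/EGFP 2 and -0.38 without SMGA/EGFP 1, so its size rested on single arrays. SMGA/EGFP against SMAA/EYFP gave 0.13 ± 0.13, so a difference between the transgenic groups was not detected. Of 4 adipocyte markers 2 had a probe set, and the defining one, Adipoq, lay below the filter at 13.3 to 108.2 intensity units over the 12 arrays. The summed level of 44076 to 56865 in SMGA/EGFP, 52239 to 55009.8 in SMAA/EYFP and 45409 to 54420 in wild type was thus nearly all Fabp4, and its part in the Dlk1 values was not tested.

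Meg3 is the long noncoding RNA next to Dlk1, made from the maternal copy. Its leading probe set had 41019, 18396 and 20653 intensity units in SMGA/EGFP arrays 1 to 3. It had 18266, 22885 and 20234 in SMAA/EYFP arrays 1 to 3, and 26467, 30410.5, 20400.3, 20107, 21358 and 19655 in wild type 1 to 6. SMGA/EGFP 1 stood above all other arrays, wild type 2 and 1 followed it, and the remaining 9 arrays lay close together. SMGA/EGFP 1 and wild type 1 and 2 also had the highest median intensities, 306, 278.1 and 274.5, beside 229.39 to 255.81 on the other 9 arrays. The part of this in the Meg3 values was not tested. Across the 12 arrays the highest value was 2.25 times the lowest.

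The same arrays led in most of the 11 Meg3 probe sets. SMGA/EGFP 1 was the highest array in 9 of 11, and SMGA/EGFP 1 with wild type 1 and 2 held the 3 highest places in 8 of 11. Probe set 1428764_at had the widest range, with 1793, 456.4 and 657.4 intensity units in SMGA/EGFP, 238.6, 557.1 and 566.2 in SMAA/EYFP, and 1169, 1070.0, 494.9, 340.3, 415.1 and 336.6 in wild type 1 to 6. Correlations among the 55 pairs of Meg3 probe sets ran from -0.07 to 0.99, with a median of 0.76. The exceptions were 3 dim probe sets, at ranks 17771, 17829 and 19943, in which other arrays took 1 or 2 of the top places.

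This spread within groups left the Meg3 group differences wide. In SMGA/EGFP against wild type the leading probe set was at 0.12 ± 0.20 (SE; limma adjusted p = 0.911), with a 95% interval of -0.32 to 0.56. Without SMGA/EGFP 1 the value was -0.19, and within the earlier records it was -0.05, so its sign turned. In SMAA/EYFP against wild type it was at -0.15 ± 0.20, and at 0.02 within the later records. SMGA/EGFP against SMAA/EYFP gave 0.27 ± 0.24 (limma adjusted p = 0.735), and -0.04 without SMGA/EGFP 1.

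Of 8 markers of pelvic ganglion neurons and Schwann cells, 6 had a probe set and 5 were tested. Their summed level ran from 9779 to 12489 in SMGA/EGFP, 5417 to 11021 in SMAA/EYFP and 4889 to 13508 in wild type, where wild type 1 and 2 had 13508 and 12636. Erbb3, at 4010 to 7163 intensity units over the 12 arrays, made up a large part of the sum. SMGA/EGFP 1, the highest array for Meg3, had the lowest sum of its group, 9779, and SMGA/EGFP 2, the lowest of its group for Meg3, had the highest, 12489. The single markers differed in this. SMGA/EGFP 1 was the lowest of its group in Erbb3, Elavl4 and Sox10, and SMGA/EGFP 3 in Prph, Chrna3 and S100b. Prph had 2099, 3463 and 1957 intensity units in SMGA/EGFP and 229.45, 814.2 and 2646 in SMAA/EYFP. In wild type 1 to 6 it had 4301, 3505, 657.1, 421.3, 210.9 and 233.55. S100b was the marker below the filter, at 132.1 to 261.2 intensity units. A list of 7 cell cycle genes was lowest on SMGA/EGFP 1, at 47700 summed intensity units, beside 58565 and 71447 on the other SMGA/EGFP arrays, 68892 to 73653 in SMAA/EYFP and 59023 to 70859 in wild type. Pcna, at 21955 on SMGA/EGFP 1, made up a large part of that sum. Pcna, Cdk1, Mcm5 and Ccne1 were lowest on SMGA/EGFP 1, but Mki67 and Top2a on SMGA/EGFP 2 and Mcm2 on wild type 5. The Actb ratio of 3-prime over 5-prime control probe sets was highest on wild type 2, at log2 0.97 beside 0.58 to 0.85 on the other arrays. Skeletal muscle markers, in which 6 of 6 genes had a probe set and 3 were tested, had their highest summed levels on wild type 2, at 28719.5, and SMGA/EGFP 1, at 27933, the arrays highest for Meg3, and 14454 to 23730 on the other 10. Wild type 1, the third for Meg3, was the lowest wild-type array in that sum, at 16278. Of these markers Mylpf, a fast muscle myosin light chain, had 5881, 7007 and 350.9 intensity units in SMGA/EGFP, 184.8, 2381 and 141.1 in SMAA/EYFP and 1170, 10516, 167.8, 195.5, 150.4 and 213.8 in wild type 1 to 6. The muscle regulators Myod1 and Myog lay below the filter on low values, which uses the mean over the 12 arrays. Both were highest on wild type 2 and SMGA/EGFP 1 and 2. There Myog had 1497, 705.7 and 796.2 intensity units, beside 15.2 to 350.2 on the other arrays. Myod1 had 475.7, 215.2 and 302.1, beside 26.7 to 170.2. SMGA/EGFP 1 also had the highest smooth muscle sum, 343783, and fibroblast sum, 263197, of the 12 arrays, while wild type 2 had the lowest of wild type in both, 275227 and 214152. The part of these in the Meg3 values was not tested.

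**Figure D3:**
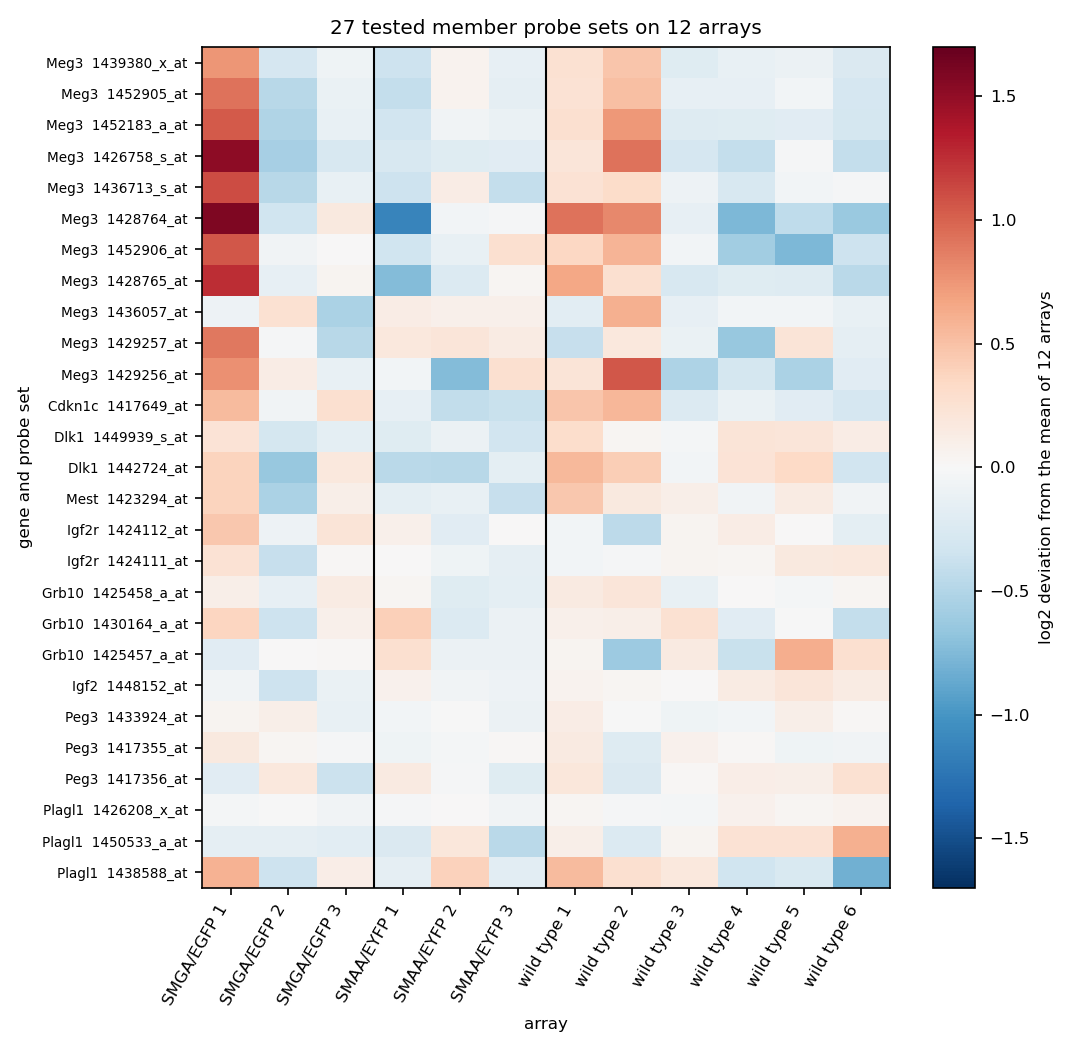
Log2 deviation from the mean of 12 arrays (colour, red above and blue below) for the 27 tested member probe sets (rows) on the SMGA/EGFP, SMAA/EYFP and wild-type arrays (columns). SMGA/EGFP 1 is the highest array in 9 of the 11 Meg3 probe sets, and wild type 1 and 2 join it in the top 3 places in 8 of them, while the leading probe sets of Plagl1 and Peg3 are pale across all arrays.

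Since Dlk1 and Meg3 lie side by side in 1 imprinted cluster, their leading probe sets were compared across arrays. Over the 12 arrays Pearson's r was 0.50 (permutation p = 0.0953) and Spearman's rho 0.57 (permutation p = 0.0551), both two-sided, and this was the single pair tested. Without SMAA/EYFP 3 and SMGA/EGFP 2, the arrays farthest from the Dlk1 median, r was 0.44 (permutation p = 0.208). Within the later records r was 0.13 (permutation p = 0.82, n = 6) and within the earlier records 0.77 (permutation p = 0.0842, n = 6). The relation did not pass in any of these sets of arrays.

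The start of Meg3 is shown because it is the member with the most probe sets. RefSeq places 2 starts of the gene on build GRCm38.p6, and the window below holds the 250 bases before the outer one, at chr12:109540746-109540995 on the plus strand. Capitals mark TGACGTCA, the full palindromic cyclic AMP response element, and TTTATATAAA, which holds the letters TATAAA on both strands, the hits sharing their middle letters. Searched on both strands in all 32851 RefSeq windows of 300 bases (250 before a start and 50 after it), TGACGTCA occurred in 1.79% and TATAAA in 13.6% of them. A match is a description of letters and not a bound site.
Meg3 upstream: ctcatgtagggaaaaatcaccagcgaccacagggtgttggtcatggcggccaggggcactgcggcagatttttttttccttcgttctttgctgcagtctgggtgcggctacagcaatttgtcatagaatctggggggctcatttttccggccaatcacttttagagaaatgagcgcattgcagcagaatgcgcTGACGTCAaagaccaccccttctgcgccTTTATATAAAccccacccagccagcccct

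Cdkn1c encodes p57, an inhibitor of cyclin-dependent kinases and a brake on cell division in the fetus. It had 18717, 12312 and 15131 intensity units in SMGA/EGFP arrays 1 to 3 and 11902, 9597 and 9914 in SMAA/EYFP arrays 1 to 3. In wild type 1 to 6 it had 17571, 18555, 11276, 11787, 11421 and 10828. All 3 SMGA/EGFP arrays lay above all 3 SMAA/EYFP arrays, and within wild type arrays 1 and 2 stood apart above the other 4. SMGA/EGFP 1 and wild type 1 and 2, the arrays highest for Cdkn1c, were also those of highest median intensity.

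The log2 difference of Cdkn1c in SMGA/EGFP from SMAA/EYFP was 0.56 ± 0.22 (SE), 1.47-fold, with a 95% interval of 0.08 to 1.04 (unadjusted p = 0.0247, limma adjusted p = 0.494). With the run of records as a block the value was 0.10, since the wild-type arrays beside each transgenic group differed in the same direction. Later against earlier records within wild type gave -0.46 ± 0.19 for Cdkn1c (unadjusted p = 0.0304, limma adjusted p = 0.581). Against wild type, Cdkn1c was at 0.21 ± 0.19 in SMGA/EGFP, and at -0.02 within the earlier records. In SMAA/EYFP it was at -0.35 ± 0.19, and at -0.12 within the later records. From earlier to later wild-type records, all 5 tested markers of pelvic ganglion neurons and Schwann cells fell. Their median log2 difference was -1.88, and 3 had an unadjusted p under 0.05 (limma), with 0 past the threshold. The list's sum was 13508, 12636 and 5767 in wild type 1 to 3 and 7055, 4889 and 5078 in wild type 4 to 6. The part of these cells in the Cdkn1c and Meg3 values was not tested.

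Plagl1 encodes a zinc finger transcription factor that is known to act on other imprinted genes in mice. Its leading probe set had 49169, 45579 and 41390.4 intensity units in SMGA/EGFP arrays 1 to 3. It had 50276, 42640 and 45016 in SMAA/EYFP arrays 1 to 3, and ran from 44525 over a median of 46268 to 50753 in wild type. The groups overlapped throughout, with SMGA/EGFP 3 the lowest and a wild-type array the highest of the 12. The log2 differences from wild type were -0.06 ± 0.04 (SE; 95% interval -0.14 to 0.03) in SMGA/EGFP and -0.05 ± 0.04 (-0.13 to 0.04) in SMAA/EYFP. The 2 dimmer probe sets of Plagl1 ran against each other over the 12 arrays (r = -0.38 to 0.85 over the 3 pairs of the gene's probe sets). Probe set 1450533_a_at was at -0.33 ± 0.17 in SMGA/EGFP, at -0.34 ± 0.17 in SMAA/EYFP, and at -0.33 ± 0.14 in the mean of both (unadjusted p = 0.0348, limma adjusted p = 0.996). Probe set 1438588_at was at 0.19 ± 0.28 in SMGA/EGFP and at 0.10 ± 0.28 in SMAA/EYFP.

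Peg3 encodes a large zinc finger protein made from the paternal copy, known for its part in growth and maternal behaviour. Its leading probe set had 25534, 25512 and 21494 intensity units in SMGA/EGFP arrays 1 to 3. It had 25092, 23294 and 22211 in SMAA/EYFP arrays 1 to 3, and ran from 22764 over a median of 24509 to 25867 in wild type. The groups overlapped, and the highest of the 12 values was 1.20 times the lowest. The log2 differences from wild type were -0.01 ± 0.06 in SMGA/EGFP (95% interval -0.15 to 0.12) and -0.07 ± 0.06 in SMAA/EYFP (-0.20 to 0.07). The other tested probe sets, at ranks 1095 and 3898, were at 0.08 ± 0.08 and -0.20 ± 0.13 in SMGA/EGFP and at -0.01 ± 0.08 and -0.09 ± 0.13 in SMAA/EYFP. The 2 probe sets of Peg3 below the filter had 1.54 to 75.2 intensity units.

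The start of Peg3 is shown because it was the single member window with GGGGCCCC, the palindrome that the Plagl1 protein is known to bind. RefSeq had 15 windows for 8 of the members, with H19 and Cdkn1c not listed. Of these windows 1 held GGGGCCCC and 2, of Meg3 and Peg3, held TGACGTCA, against 1.08% and 1.79% of all 32851 windows, searched on both strands. The sequence runs over chr7:6730420-6730669 on the minus strand of GRCm38.p6, the 250 bases before the start, with both palindromes in capitals, and no letters outside the RefSeq window were searched. Nothing about either factor follows from these letters.
Peg3 upstream: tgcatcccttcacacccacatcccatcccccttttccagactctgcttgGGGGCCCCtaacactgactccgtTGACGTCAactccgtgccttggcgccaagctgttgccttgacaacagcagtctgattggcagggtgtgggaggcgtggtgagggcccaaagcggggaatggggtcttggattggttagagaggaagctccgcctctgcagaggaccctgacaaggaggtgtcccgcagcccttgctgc

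Mest encodes a protein of the hydrolase fold that is made from the paternal copy and is bright in embryonic mesoderm. Its probe set had 16107, 8622 and 13232 intensity units in SMGA/EGFP arrays 1 to 3. It had 11427, 11436 and 9579 in SMAA/EYFP arrays 1 to 3, and ran from 11861 over a median of 13737 to 17059 in wild type. All 3 SMAA/EYFP arrays lay below all 6 wild-type arrays, and the SMGA/EGFP arrays spanned nearly the whole range. The log2 difference in SMAA/EYFP from wild type was -0.35 ± 0.17 (SE), 0.784-fold (unadjusted p = 0.0526, limma adjusted p = 0.991), and -0.23 within the later records. In SMGA/EGFP it was -0.15 ± 0.17 (95% interval -0.50 to 0.21), and 0.12 without SMGA/EGFP 2, so its sign rested on that array.

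Some members host microRNAs, which these arrays do not measure in mature form. A single mature sequence per host from RefSeq (GRCm38.p6) is given, with the seed (bases 2 to 8) in capitals. The hosts are those whose groups did not overlap in a comparison above, Igf2 and Mest, and H19, whose probe set is shared with Mir675. Their other mature sequences, mmu-miR-483-5p, mmu-miR-335-3p and mmu-miR-675-3p, are not shown. No seed is shared among the 3, which lie at chr7:142654932-142654952 (minus strand, Igf2), chr6:30741314-30741336 (plus strand, Mest) and chr7:142577112-142577133 (minus strand, H19).
mmu-miR-483-3p: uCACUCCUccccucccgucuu
mmu-miR-335-5p: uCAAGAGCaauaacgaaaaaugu
mmu-miR-675-5p: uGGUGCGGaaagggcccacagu

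**Figure D4:**
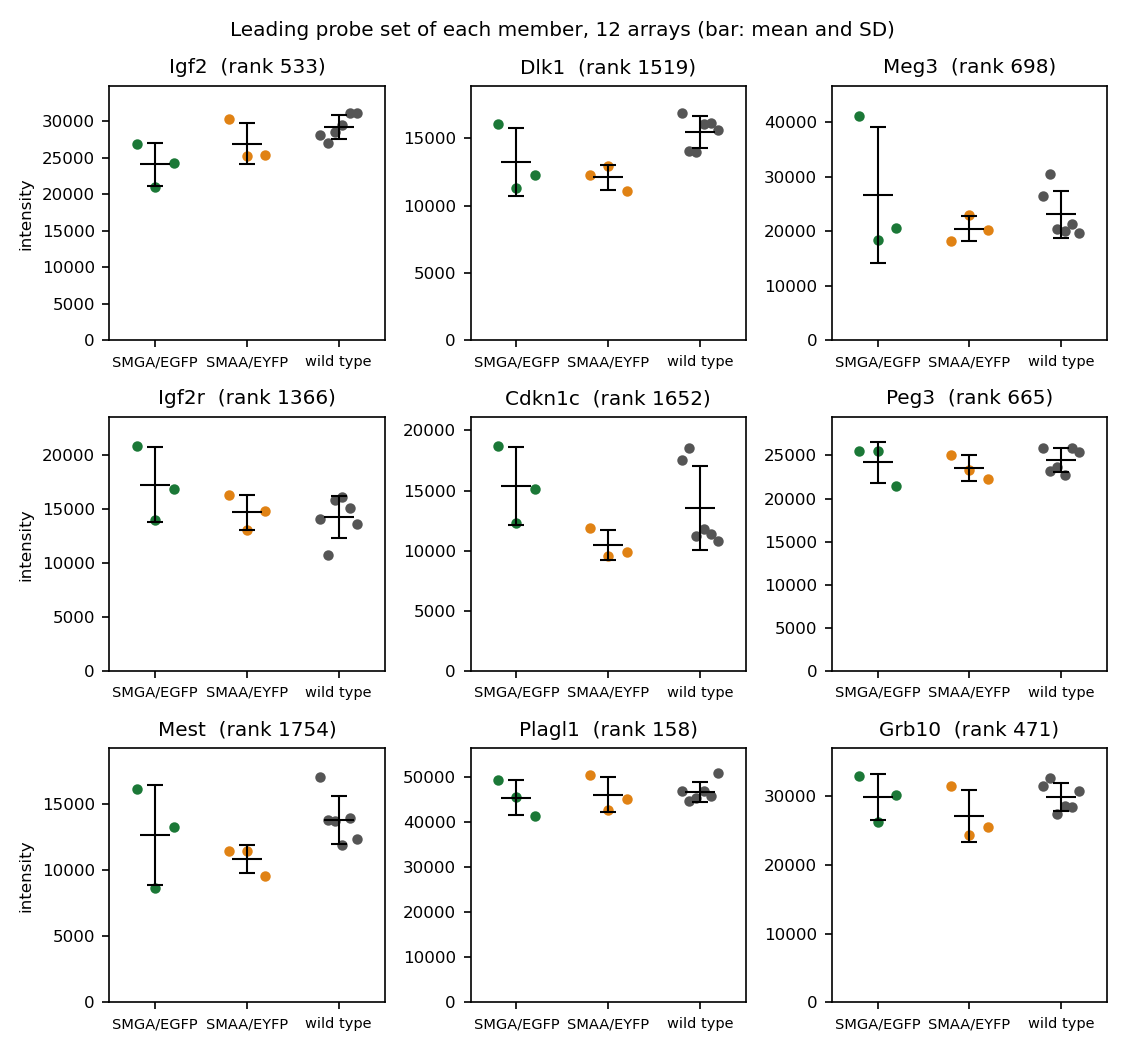
Intensity (linear axis from 0) of the leading probe set of each of the 9 genes on the SMGA/EGFP, SMAA/EYFP and wild-type arrays (points), with the group mean and SD (bars) and the rank of the mean in each title. The SMGA/EGFP arrays lie below all wild-type arrays for Igf2, the SMAA/EYFP arrays do so for Dlk1 and Mest, and 1 SMGA/EGFP array stands at 41019 for Meg3.

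Between the wild-type arrays of the later and the earlier records, 0 of 27 member probe sets passed, as did 0% of all, and the smallest adjusted p of a member was 0.441. At an unadjusted p under 0.05, 1 was higher and 4 were lower, where 3.85% and 4.30% of all were. The arrays did not overlap in 2 higher and 4 lower members, where 7.46% and 6.07% of all did not. Without wild type 3, Cdkn1c passed at -0.71 (limma adjusted p = 0.0326), and this was the single alternative with a member past the threshold. The Meg3 probe sets 1428764_at and 1452906_at were at -1.14 ± 0.44 and -0.86 ± 0.29 (SE), both without overlap, and the leading Meg3 probe set at -0.33 ± 0.22, with overlap. Plagl1 went both ways, with 1450533_a_at at 0.40 ± 0.18 and 1438588_at at -0.80 ± 0.25 (limma adjusted p = 0.605 and 0.441), each without overlap. Igf2 was at 0.13 ± 0.08, with wild type 4 to 6 above wild type 1 to 3.

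Across arrays, the members followed each other unevenly. Over the 36 pairs of leading probe sets, r over the 12 arrays ran from -0.23 to 0.86 with a median of 0.26, and 29 were above 0. The pairs with the highest r were Cdkn1c with Grb10 (0.86), Dlk1 with Mest (0.80) and Meg3 with Cdkn1c (0.77). Igf2 followed Dlk1 (0.67) and not Igf2r (-0.07) or Meg3 (0.00). All points of a pair share their arrays, and with them the RNA and the normalization, so these are descriptions without a test.

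By the same measure among all named probe sets tested, the genes whose pattern over the 12 arrays was most like each member were found. Igf2 was nearest to Aldh1l2 (r = 0.92) and Triobp (0.91), and Dlk1 to Bag6 (0.95) and Twist2 (0.91). Cdkn1c was nearest to Prom1 (0.97) and Ddah2 (0.95), and Mest to Cst3 (0.95) and Sik3 (0.94). Meg3 was nearest to 2310067E19Rik (0.99) and Tet2 (0.97), and Igf2r to Ppp2r3a (0.96) and R3hdm2 (0.90). Peg3 was nearest to Mapre2 (0.90) and Slc45a1 (0.83), Plagl1 to Ndufs4 (0.90) and Txndc15 (0.89), and Grb10 to Emilin3 and Crebbp (both 0.92). Each is the maximum over all named probe sets tested on 12 arrays, so a high value is no finding about the pair.

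Of 45 other imprinted genes listed for comparison, 40 had a probe set of their own, 29 were tested and 0 passed in any comparison. In SMGA/EGFP against wild type 11 were higher and 18 lower, with a median log2 difference of -0.05, and the same split in SMAA/EYFP had a median of -0.04. Slc38a4, an amino acid transporter of the fetus and placenta, had 3963, 4349 and 4167 intensity units in SMAA/EYFP and ran from 4609 to 5933 in wild type, without overlap, at -0.33 ± 0.09 (unadjusted p = 0.003, limma adjusted p = 0.991). Rian, a noncoding RNA that lies beyond Meg3 in the same cluster, was at 0.41 ± 0.19 in SMGA/EGFP against wild type (limma adjusted p = 0.718). SMGA/EGFP 1 was its highest array, at 14029 intensity units, but wild type 2, high for Meg3, was its lowest, at 5571. Kcnq1ot1 was highest on the arrays highest for Meg3, at 1713 on wild type 2, 1294 on wild type 1 and 1238 on SMGA/EGFP 1. Mirg was highest on SMGA/EGFP 1, at 1082, and wild type 2, at 734.2, with 513.7 on wild type 1. Airn was highest on SMGA/EGFP 1, at 6448, followed by SMGA/EGFP 3, at 4139, with 3971 and 3721 on wild type 1 and 2. What these orders share was not tested. Phlda2, a growth-restraining neighbour of Cdkn1c, was at -0.57 ± 0.26 in SMGA/EGFP (limma adjusted p = 0.718). Nnat, a membrane protein of developing neurons, was at -1.38 ± 0.48 between later and earlier wild-type records. It had 561.9, 411.8 and 431.4 intensity units on wild type 4 to 6. On wild type 1 to 3 it had 2269, 1855 and 460.5. Markers of pelvic ganglion neurons and Schwann cells also fell in this contrast, and their part in the Nnat values was not tested.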

How the data were processed

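The authors deposited 1 linear intensity value per probe set and array. These come from GCOS, per the submitters' processing notes, with version, algorithm and filters not given in the sources used here. Trimmed array means of 1499.84 to 1500.01 show that a factor per array had been applied. Tests use quantile-normalized values of log2(intensity + 16). After 64 controls were left out of the 45101 probe sets, those with a mean above the median (log2 8.02) entered limma 3.58.1 under R 4.3.3 (lmFit, eBayes with trend, two-sided, all 12 arrays in 1 fit, Benjamini-Hochberg over all tested, threshold 0.05), with wild type divided by records in a fit of 4 groups. Gene names came from GEO's platform annotation, and none from a probe set with several symbols. Levels and ranks use intensity as deposited. Array number limits the precision. Tested on simulated data, the SMGA/EGFP comparison found 73.5% of probe sets changed by log2 1 and 97.9% of those changed by log2 2, and the SMAA/EYFP comparison 77.6% and 96.8%, while 6.78% and 7.69% of the calls of these comparisons were false.

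The members and lists were chosen with earlier results of these data known. Named were all members, up to 4 genes of smallest p per further list and the 2 probe sets most like each member. Single further genes of the lists were named where they were set beside member values. Alternatives were values as deposited, median centring, other pseudocounts (1 and 64), no filter and a 75th percentile filter, eBayes without trend or robust, the compared arrays alone, the run of records as a block and within it, 1 probe set per gene, and each array left out. A relation of Igf2 with H19 was not computed, as H19 had no probe set of its own. Promoter and microRNA sequences came from RefSeq tables of GRCm38.p6.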

Additional observations from a re-analysis of the deposited data

Results flagged for a closer look

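For the Meg3 probe set 1436057_at, wild type 2 lay apart from the other wild-type arrays, at log2 9.62 beside 8.84 to 8.97, with an intensity of 809.6. The gap was above the 95% critical value of Dixon's test for 6 arrays. Of 27 wild-type groups tested this way, 1 per member probe set, 1 was marked, and chance marks about 1 in 20 groups. Wild type 2 was also the highest array overall in this dim probe set.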

How the results depend on the processing

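The count of member probe sets past the threshold was 0 under every alternative run in each of the comparisons between genotypes. In later against earlier wild-type records it ranged from 0 to 1 over the arrays left out: it was 1 without wild type 3, where Cdkn1c passed at -0.71 (limma adjusted p = 0.0326), and 0 otherwise; that fit rests on 2 earlier wild-type arrays, which were the high ones for Cdkn1c. Of 1026 values of single members under an alternative, 984 kept their sign or moved by less than the SD between replicates, 41 moved by more or changed sign without a call, and 1 gained a call. With the run of records as a block, Meg3 was at -0.05 and Cdkn1c at -0.02 in SMGA/EGFP against wild type, and Meg3 at 0.01 and Igf2r at -0.02 in SMAA/EYFP against wild type; the cause was not tested. Ranks after quantile normalization were close to those as deposited. No paired analysis was possible because the labels give no replicate numbers shared between groups. With 3 arrays in a transgenic group, changes of the size seen in Igf2 and Dlk1 lie below what the simulated data covered, so the absence of calls does not show equal levels.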

Other observations

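The probe set listed under both Mir675 and H19 stood at rank 344 of the array by mean. It had 34911, 30667 and 30532 intensity units in SMGA/EGFP arrays 1 to 3 and 36976, 33093 and 32218 in SMAA/EYFP arrays 1 to 3. In wild type 1 to 6 it had 35595, 33076, 30848, 35201, 36493 and 40260. Group means were 32037 ± 2490 in SMGA/EGFP, 34095.5 ± 2532 in SMAA/EYFP (SD, n = 3 each) and 35245 ± 3190 in wild type (SD, n = 6), with overlapping groups. It was not assigned to either gene.

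RefSeq start windows of the members (300 bases each) differed widely in their number of CG dinucleotides, the letters at which imprints are written. The Grb10 windows held 45 and 9, the Igf2r window 34 and the Plagl1 window 26, while the 4 Igf2 windows held 2 to 24, beside a median of 7 over all 32851 windows. Methylation was not measured here.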
